A study of Mus musculus with 12 samples.

Results

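The adrenomedullin system was followed through 8 genes, which were taken by symbol from the 52550 genes of the count table: Adm, Adm2, Calca, Calcrl, Ramp1, Ramp2, Ramp3 and Ackr3. Adrenomedullin is a secreted peptide that dilates vessels and promotes the growth and the barrier function of endothelium. It acts through the calcitonin receptor-like receptor, encoded by Calcrl, a class B G protein-coupled receptor that reaches the cell surface together with a receptor activity-modifying protein. Ramp2 and Ramp3 make this receptor respond to adrenomedullin and Ramp1 makes it respond to calcitonin gene-related peptide, and the signal runs mainly through cyclic AMP. In lung, Calcrl and Ramp2 are known as endothelial genes.

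Whole lungs of C57Bl/6J mice were sequenced on postnatal day 5, with 3 libraries in each of 4 groups. WT mice carried both Adm copies, and Adm+/- mice lacked 1 functional copy in every cell type, since mice without any copy die before birth. Mice of both genotypes received intraperitoneal Escherichia coli O55:B5 lipopolysaccharide (LPS) at 6 mg/kg, or PBS in the same volume, on each day from postnatal day 3 to 5, and lungs were taken 6 h after dose 3. Replicate numbers are the library numbers of the labels: 3, 4 and 5 for WT PBS, 9, 10 and 11 for WT LPS, 6, 7 and 8 for Adm+/- PBS, and 1, 2 and 12 for Adm+/- LPS. Per the study's methods each group held 3 animals, and the Adm allele had been backcrossed from 129/SvEv.

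The deposited values are raw gene counts, with 22382535 to 38062873 counts per library. They are given here as CPM, the usual counts per unit of library size, scaled with edgeR's TMM factors over protein-coding genes, and between genes as TPM, which also divides by exon length. Changes are log2 fold changes with their standard error (SE) from 1 edgeR quasi-likelihood fit of all 12 libraries and 15885 genes. A gene is called where the Benjamini-Hochberg adjusted p is below 0.05 and the absolute log2 fold change is above 0.5. WT PBS replicate 5 and Adm+/- PBS replicate 6 stood apart from the other libraries, in that protein-coding genes took 77.8% and 80.1% of their counts and 84.3% to 87.6% of those of the others. In the same pair, 16.6% and 13.3% of counts fell on Gm26917, a non-coding gene, whereas the other libraries had 5.42% to 7.40%. Lung endothelial markers were plentiful in all groups, with Cdh5, Vwf and Pecam1 at a mean of 674, 510 and 494 CPM. The WT LPS libraries also held skeletal muscle markers (12 genes, 2387 to 5275 summed CPM, at most 738 in any other library). They held squamous epithelium markers as well (12 genes, 37 to 3494 summed CPM, at most 48.3 elsewhere). Summed CPM of 12 neutrophil markers ran from 1606 to 2966 after LPS and from 40.8 to 186 in PBS.

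Of the system's genes, 3 rose after LPS and none was called lower. Ackr3 and Calca rose in both genotypes, and Ramp3 rose in Adm+/- mice, while Adm, Calcrl, Ramp1 and Ramp2 did not pass the thresholds in either. In WT mice 2 of the 7 tested members were called, where 17.6% of all tested genes were (10.5% higher and 7.09% lower). In Adm+/- mice 3 of 7 were called, where 25% of all tested genes were (12.8% higher and 12.2% lower). LPS and PBS libraries did not overlap for these 2 and 3 members, as for 18.3% and 26.6% of tested genes in this direction. Averaged over genotypes Ackr3, Calca and Ramp3 were called, at 1.13, 1.85 and 1.26 log2 units, where 28% of all tested genes were called. Adm2 had 0 to 8 counts per library, did not pass the filter on low counts and was not tested. The median log2 fold change of the 7 tested members was 0.39 in WT and 0.34 in Adm+/- mice, against 0.01 and -0.01 over all tested genes.

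**Figure D1:**
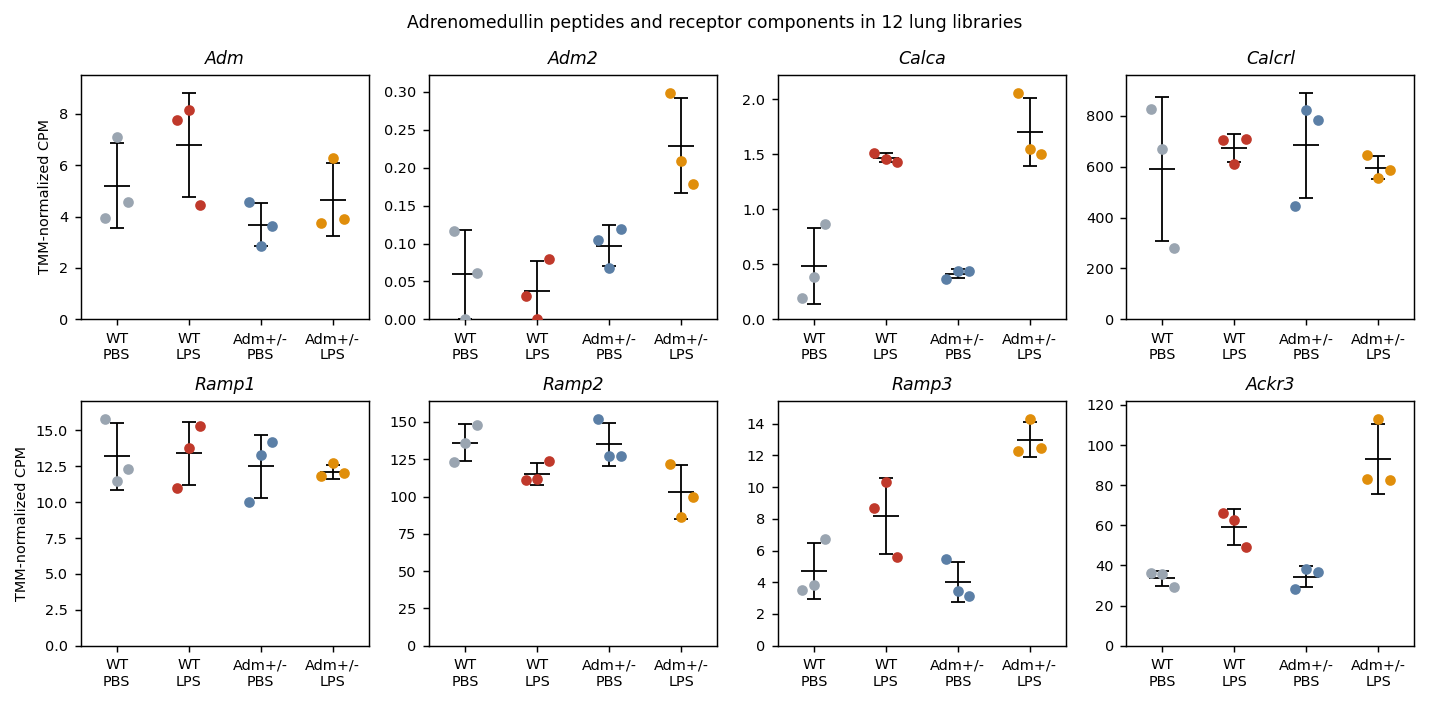
TMM-normalized CPM of the 8 genes (vertical axes, each from 0) in the 4 groups, 1 point per library, with the mean and SD of 3 libraries in black. Ackr3 and Calca lie higher in every LPS library than in any PBS library, Ramp3 lies highest in the Adm+/- LPS libraries, and Calcrl is lowest in WT PBS replicate 5 (279 CPM) and Adm+/- PBS replicate 6 (446 CPM).

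Per length of all annotated exons joined, the receptor transcript exceeded its partners and ligands. For Ramp2 this length was 3301 bases, while its longest transcript has 1478 bases, and for Calcrl both were 4882. Ramp2 TPM would be higher on transcript length, and whether the order below holds on it was not computed. Calcrl had a mean of 570 TPM over the 12 libraries (range 234 to 795) and Ramp2 had 161 TPM (107 to 192). These ranges did not overlap on joined exon length. Ackr3, an atypical receptor that takes up adrenomedullin and the chemokine Cxcl12 without G protein signalling, followed at 70.5 TPM (35.4 to 139). Ramp2 exceeded Ackr3 in 11 of 12 libraries, and Adm+/- LPS replicate 2 was the exception, with 107 TPM for Ramp2 and 139 TPM for Ackr3. Ramp3 had 23.1 TPM (10.6 to 42.6) and Ramp1 had 18.4 TPM (13.9 to 24.6), and their order differed between libraries, with Ramp1 higher in 5 of 12. Adm followed at 13.5 TPM (7.98 to 21.6), a range that overlapped those of Ramp1 and Ramp3. Calca had 2.57 TPM (0.54 to 5.11) and Adm2 had 0.349 TPM (0 to 0.965).

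The genes lie on 5 chromosomes of mm10 (Gencode release M21). Adm (chromosome 7, 110627661 to 110629820, plus strand) overlaps the antisense gene Gm28863 without sharing exon bases with it. Calca lies on chromosome 7 from 114631478 to 114636357 on the minus strand. Calcrl lies on chromosome 2 from 84330626 to 84425411, also on the minus strand. Ackr3 (90203980 to 90216751) and Ramp1 (91179822 to 91225196) lie on the plus strand of chromosome 1. Ramp2 (101246028 to 101259546) and Ramp3 (6658521 to 6677475) lie on the plus strand of chromosome 11, and Adm2 on the plus strand of chromosome 15 (89322720 to 89324731). Exons of Ramp2 overlap those of Vps25 on the same strand, and exons of Ramp3 overlap the pseudogene Gm11978 on the other strand. The strand setting of the counting is not given in the sources used here, so reads shared with these neighbours cannot be told apart.

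The 250 bases before the RefSeq start (GRCm38.p6) of the members that rose, and of Adm, are printed to show the response motifs close to their starts. Each window was searched on both strands for the hypoxia-response cores ACGTG and GCGTG, the cyclic AMP response core TGACG, the palindrome TTCNNNGAA, TATAAA and the NF-kappa B consensus. Capitals mark the matches, and CACGC is GCGTG read on the other strand.
Adm (chr7:110627407-110627656, plus strand): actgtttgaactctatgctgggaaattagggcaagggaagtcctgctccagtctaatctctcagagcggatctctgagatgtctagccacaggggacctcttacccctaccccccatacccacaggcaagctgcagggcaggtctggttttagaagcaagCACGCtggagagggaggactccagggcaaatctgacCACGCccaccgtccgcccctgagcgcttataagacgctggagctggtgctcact
Calca (chr7:114636358-114636607, minus strand): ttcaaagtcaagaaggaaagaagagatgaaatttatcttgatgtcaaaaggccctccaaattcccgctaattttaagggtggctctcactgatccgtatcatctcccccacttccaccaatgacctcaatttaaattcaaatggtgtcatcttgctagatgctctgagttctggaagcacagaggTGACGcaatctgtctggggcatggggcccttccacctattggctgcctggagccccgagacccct
Ramp3 (chr11:6658283-6658532, plus strand): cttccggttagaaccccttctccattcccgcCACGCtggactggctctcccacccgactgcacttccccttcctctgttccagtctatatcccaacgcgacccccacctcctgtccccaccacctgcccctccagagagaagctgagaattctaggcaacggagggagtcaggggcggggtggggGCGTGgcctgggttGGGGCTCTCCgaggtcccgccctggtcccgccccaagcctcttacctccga
Ackr3 (chr1:90203730-90203979, plus strand): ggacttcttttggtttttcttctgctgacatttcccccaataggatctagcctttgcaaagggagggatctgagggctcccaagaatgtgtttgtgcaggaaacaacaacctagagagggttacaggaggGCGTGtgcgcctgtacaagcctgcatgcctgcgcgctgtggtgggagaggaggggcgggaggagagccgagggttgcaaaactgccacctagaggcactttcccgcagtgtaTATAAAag
Adm held CACGC at 90 to 86 and at 54 to 50 bases before the start, and Calca held TGACG at 65 to 61. Ramp3 held CACGC at 219 to 215, GCGTG at 65 to 61 and the NF-kappa B consensus at 51 to 42, and Ackr3 held GCGTG at 120 to 116 and TATAAA at 8 to 3. The windows of Adm2, Calcrl and Ramp1 held none of these motifs, and Ramp2 had no entry. Over all 32851 windows of the same length, 28.2% held GCGTG, 17.8% TGACG, 16.6% ACGTG, 12.4% TATAAA, 7.02% TTCNNNGAA and 3.9% the NF-kappa B consensus. A match of this kind is a run of letters and was not tested as a binding site.

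Among the ligands, Adm itself was low in every library, and its level ranged between 2.87 CPM (Adm+/- PBS replicate 7) and 8.15 CPM (WT LPS replicate 10). WT PBS libraries had 3.96, 7.08 and 4.57 CPM, WT LPS 7.76, 8.15 and 4.46, Adm+/- PBS 4.58, 2.87 and 3.62, and Adm+/- LPS 3.74, 6.28 and 3.92. These correspond to 74 to 252 counts. Means were 5.2 ± 1.66 CPM in WT PBS, 6.79 ± 2.03 in WT LPS, 3.69 ± 0.854 in Adm+/- PBS and 4.65 ± 1.42 in Adm+/- LPS (SD, n = 3). Averaged over both treatments, the level in Adm+/- mice was 0.694 of that in WT mice. The log2 fold change of -0.53 (SE 0.22, 95% interval -1.01 to -0.04) had an adjusted p of 0.447 from edgeR over all genes and an unadjusted p of 0.0349. The libraries of the genotypes overlapped in both treatments, so the labelled genotype is not visible in each library alone. Per the study's methods, the genotype of Adm+/- mice was checked by genotyping and by RT-PCR of Adm in lung. Of the 7 tested members, Adm and Ackr3 (0.34, adjusted p = 0.343 from edgeR) had an unadjusted p below 0.05 in this averaged comparison, as 9.76% of tested genes did, and none was called with edgeR, DESeq2 or limma-voom, where 0.29% of tested genes were with edgeR. The response of Adm to LPS differed between genotypes by -0.05, with an interval of -1.01 to 0.92.

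Adm2, which encodes the related peptide intermedin, was close to absent at this depth. It had 3, 0 and 1 counts in WT PBS, 1, 0 and 2 in WT LPS, 2, 2 and 3 in Adm+/- PBS, and 8, 5 and 5 in Adm+/- LPS. Only the Adm+/- LPS libraries exceeded 3 counts, the floor used here, which corresponds to 0.0924 to 0.185 CPM. All other groups lay at or under that floor.

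Calca encodes calcitonin and, by alternative splicing, calcitonin gene-related peptide, and gene counts do not separate these products. Its level was 0.194, 0.388 and 0.865 CPM in WT PBS and 1.51, 1.46 and 1.43 CPM in WT LPS. It was 0.368, 0.439 and 0.437 CPM in Adm+/- PBS and 2.06, 1.55 and 1.5 CPM in Adm+/- LPS. All 6 LPS libraries exceeded all 6 PBS libraries, which held for 11.4% of the tested genes in this direction. Calca rose by 1.68 log2 units (SE 0.40, 3.21-fold, adjusted p = 0.0127 from edgeR) in WT mice. The rise was 2.01 (SE 0.39, 4.04-fold, adjusted p = 0.00262 from edgeR) in Adm+/- mice. These values rest on 5 to 14 counts per PBS library and 35 to 55 per LPS library. WT PBS replicate 5 was the highest PBS library, and without it the WT value was 2.34. Without WT PBS replicate 3, the lowest, it was 1.25, and the adjusted p from edgeR was at most 0.0439 over the 12 fits without 1 library. With only the WT libraries in the fit it was 1.67 and was not called (adjusted p = 0.0803 from edgeR).

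Calca is also a gene of neuroendocrine cells, sensory neurons and the C cells of the thyroid, and markers of these cells were read beside it. Of 11 tested neuroendocrine markers none was called in WT mice with edgeR or limma-voom, 1 was called with DESeq2, and 2 had an unadjusted p below 0.05. The WT count was 2 without WT PBS replicate 3 and 1 without WT PBS replicate 4. In Adm+/- mice 2 were called higher, Uchl1 (1.04) and Chga, which had 0 to 18 counts per library, and the count was 1 without any 1 of the 6 Adm+/- libraries. The 14 listed genes summed to 51.3 to 61.6 CPM in WT LPS and 55 to 85.8 CPM in WT PBS, and to 60.3 to 67 against 54.1 to 62.3 CPM in Adm+/- mice. The neuroendocrine markers of highest level were Cplx2, Uchl1 and Grp.

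Of 7 tested sensory neuron markers 1 was called higher in each genotype with edgeR, a count that was 0 in 10 of the 12 fits without 1 library in WT mice and in 6 of 12 in Adm+/- mice. Trpv1 and Tac1, which mark such neurons, had at most 4 and 3 counts. Of 6 tested thyroid markers 2 were called higher in each genotype, the transporter gene Slc26a4 in both, Duox2 in WT mice and thyroglobulin, Tg (1.20), in Adm+/- mice, the last named after its value was seen. The WT count was 5 without WT PBS replicate 4 and 1 with limma-voom. The 9 listed thyroid genes summed to 12.7 to 32.4 CPM in WT LPS, 26.3 to 28 CPM in Adm+/- LPS and 5.21 to 6.74 CPM in PBS libraries, while Slc5a5 had 4 to 11 counts and Pax8 had 0 to 8. The part of these cells in the rise of Calca was not tested.

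Calcrl was the most abundant member and varied strongly within the PBS groups. WT PBS libraries had 828, 668 and 279 CPM and WT LPS libraries 706, 611 and 709 CPM. Adm+/- PBS libraries had 446, 821 and 785 CPM and Adm+/- LPS libraries 645, 556 and 587 CPM. The lowest values were those of the libraries that stood apart, WT PBS replicate 5 and Adm+/- PBS replicate 6, and LPS and PBS libraries overlapped in both genotypes. After LPS the log2 fold change of Calcrl was 0.19 (SE 0.32, 95% interval -0.52 to 0.90) in WT mice and -0.20 (SE 0.32, -0.91 to 0.51) in Adm+/- mice. Without both of these libraries the value was -0.15 for WT mice. That for Adm+/- mice was -0.43, where edgeR gave an adjusted p of 0.0156 and the fold threshold was not reached.

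Base composition was read beside the low Calcrl values. The Calcrl transcript holds 37.8% G and C, at percentile 1.85 of the tested genes. In WT PBS replicate 5, Calcrl lay 1.42 log2 units below the other WT PBS libraries (a deviation of -1.42), and the fifth of genes lowest in GC had a median deviation of -0.62. In Adm+/- PBS replicate 6 the deviation of Calcrl was -0.85 and that of the fifth lowest in GC was -0.33. The fifth highest in GC deviated by 0.53 and 0.31 in the same libraries. Ramp3, at 55.4% GC, deviated by 0.86 and 0.72 and Ramp2, at 56.7%, by 0.19 and 0.26. Other members did not follow this order: Calca, at 48.9%, deviated by 1.40 and -0.21, and Ramp1, at 52.6%, by -0.13 and -0.45. Ackr3, at 49%, deviated by -0.29 and -0.40 and Adm, at 50.7%, by -0.21 and 0.49. The part of base composition in these values was not tested.

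Ramp1, the partner that turns the receptor towards calcitonin gene-related peptide, had like levels in the 4 groups. It lay between 10 and 15.8 CPM over the 12 libraries, and its groups overlapped in every comparison. Between LPS and PBS it differed by 0.01 (SE 0.18, 95% interval -0.38 to 0.41) in WT mice and by -0.05 (SE 0.18, -0.44 to 0.34) in Adm+/- mice. At this spread a change of either sign within these intervals is not excluded.

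Ramp2, the partner required for vessel formation in the embryo, had lower means after LPS in both genotypes. WT libraries had 123, 136 and 148 CPM in PBS and 111, 112 and 124 CPM in LPS, and they overlapped. Adm+/- libraries had 152, 127 and 127 CPM in PBS and 122, 86 and 99.5 CPM in LPS, and every LPS library was below every PBS library, as for 27.1% of tested genes. For Ramp2 the log2 fold change was -0.24 (SE 0.13, adjusted p = 0.225 from edgeR) in WT mice. For Adm+/- mice it was -0.40 (SE 0.13, adjusted p = 0.0425 from edgeR). The second value passed the adjusted p and not the fold threshold. Without Adm+/- LPS replicate 1 it was -0.54 (adjusted p = 0.0151 from edgeR) and was called, and without Adm+/- LPS replicate 2 it was -0.29. The call was made in 1 of 12 fits without 1 library, with an adjusted p from edgeR of 0.0151 to 0.162 over them, and without both libraries that stood apart the value was -0.31 (adjusted p = 0.0932 from edgeR). Averaged over genotypes the change was -0.32 (95% interval -0.52 to -0.11, adjusted p = 0.0183 from edgeR).

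Ramp3, the partner that makes the other adrenomedullin receptor and steers its recycling, rose in Adm+/- mice. WT libraries had 3.53, 3.83 and 6.73 CPM in PBS and 8.69, 10.3 and 5.57 CPM in LPS. WT LPS replicate 11 was lower than WT PBS replicate 5, so the WT groups overlapped. Adm+/- libraries had 5.47, 3.45 and 3.14 CPM in PBS and 12.3, 14.3 and 12.5 CPM in LPS, a gap larger than the spread within either group. Ramp3 rose by 1.70 log2 units (SE 0.30, 3.26-fold, adjusted p = 0.00159 from edgeR) in Adm+/- mice. In WT mice the difference of 0.81 (SE 0.30, 1.76-fold, adjusted p = 0.0725 from edgeR) did not pass. The WT value was called in 2 of 12 fits without 1 library and in 2 of 9 other alternatives, and its lowest value was 0.62, without WT LPS replicate 10. The adjusted p was at most 0.201. Where called it was 1.15 without WT PBS replicate 5 (adjusted p = 0.0199), 1.02 without WT LPS replicate 11 (adjusted p = 0.0379), and 1.15 without both libraries that stood apart (adjusted p = 0.0105), these from edgeR, and 0.81 with DESeq2 (adjusted p = 0.0347).

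Ackr3 rose in both genotypes with little spread in PBS. Levels were 36.1, 35.6 and 29.2 CPM in WT PBS and 66.3, 62.4 and 49.3 CPM in WT LPS. They were 28.3, 38 and 36.8 CPM in Adm+/- PBS and 83.3, 113 and 82.4 CPM in Adm+/- LPS. All LPS libraries exceeded all PBS libraries, as for 11.4% of tested genes. All Adm+/- LPS libraries exceeded all WT LPS libraries, as for 12.2% of tested genes, and that difference was not called (adjusted p = 0.0742 from edgeR). Ackr3 rose by 0.82 log2 units (SE 0.17, 1.76-fold, adjusted p = 0.00707 from edgeR) in WT mice. The rise was 1.43 (SE 0.17, 2.7-fold, adjusted p = 0.000172 from edgeR) in Adm+/- mice, and both rises were called in each of the 12 fits that left out 1 library.

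**Figure D2:**
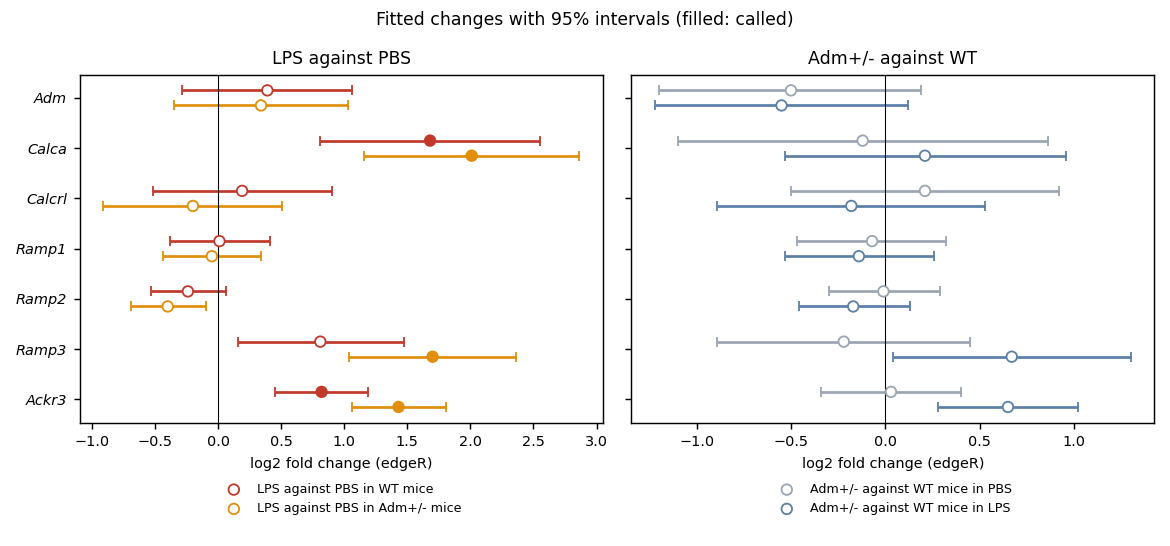
Log2 fold changes (horizontal axes) of the 7 tested members with 95% intervals from edgeR, after LPS in each genotype (left) and between genotypes in each treatment (right), with filled points for called values. Filled points are Calca and Ackr3 in both genotypes and Ramp3 in Adm+/- mice (1.70), and no point between genotypes is filled.

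The difference in response between genotypes was tested directly. None of the 7 was called with edgeR, DESeq2 or limma-voom, where 0.145% of all tested genes were called with edgeR. At an unadjusted p below 0.05, where 7.85% of tested genes lay, there was 1 member, Ackr3. Its rise was larger by 0.62 log2 units in Adm+/- mice (SE 0.24, 95% interval 0.09 to 1.14, adjusted p = 0.52 from edgeR). For Ramp3 the difference was 0.89 (95% interval -0.03 to 1.81, adjusted p = 0.652 from edgeR), and it was 0.56 without WT PBS replicate 5 and 1.16 without Adm+/- PBS replicate 6. The intervals of the other members included 0, and that of Calca ran from -0.90 to 1.56.

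Between genotypes in PBS, none of the 7 members was called with edgeR, DESeq2 or limma-voom, and none had an unadjusted p below 0.05. Over all tested genes 0% were called by edgeR in this comparison, and 344 (2.17%) had an unadjusted p below 0.05. The 95% interval of the difference was -0.34 to 0.40 for Ackr3, -0.89 to 0.45 for Ramp3 and -0.30 to 0.29 for Ramp2. In LPS none was called with edgeR or limma-voom, where 2.05% of all tested genes were called with edgeR, and 2 members had an unadjusted p below 0.05, as 14.3% of tested genes did. Ackr3 was 1.57-fold higher in Adm+/- LPS (log2 fold change 0.65, SE 0.17, adjusted p = 0.0742 from edgeR). It was called with DESeq2 (adjusted p = 0.0103) and in the edgeR fit without WT PBS replicate 5 (adjusted p = 0.0462), and its value was 0.48 to 0.74 over the 12 fits without 1 library, lowest without Adm+/- LPS replicate 2. Ramp3 was 1.59-fold higher (log2 fold change 0.67, 95% interval 0.04 to 1.30, adjusted p = 0.312 from edgeR). In this direction, 12.2% of tested genes had groups that did not overlap, as Ackr3 and Ramp3 did. Between the same groups 11 of 11 tested skeletal muscle markers (median -5.50) and 5 of 10 squamous epithelium markers (median -6.29) were called lower in Adm+/- LPS, and their part in these values was not tested. The Adm+/- LPS libraries enter both this comparison and the LPS response, so these values are not independent of each other.

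The proportions of the Ramp transcripts per exon length differed between libraries, and are given without a test. Ramp2 made up most of the summed Ramp TPM in all libraries. Ramp3 made up 5.68%, 5.8% and 9.07% in WT PBS and 14.5%, 16.2% and 8.67% in WT LPS. It made up 7.44%, 5.52% and 4.99% in Adm+/- PBS and 17.8%, 25.5% and 20.9% in Adm+/- LPS. The share in every Adm+/- LPS library was above that of all other libraries, whereas WT LPS replicate 11 lay below WT PBS replicate 5. Ramp2 TPM per Ramp3 TPM was 9.19 to 17 in PBS libraries, 4.54 to 9.28 in WT LPS and 2.52 to 4.17 in Adm+/- LPS. The share of Ramp1 lay between 6.24% and 11.6% with no separation of groups. With these lengths Calcrl TPM exceeded the summed Ramp TPM in all libraries, by a factor of 2.65 to 3.76 in 10 of them. The factor was 1.06 in WT PBS replicate 5 and 1.71 in Adm+/- PBS replicate 6. The length used for Ramp2 was that of all its annotated exons joined, 3301 bases, and its longest transcript has 1478 bases. Ramp2 TPM would be higher on the shorter length, and the shares and factors on it were not computed.

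**Figure D3:**
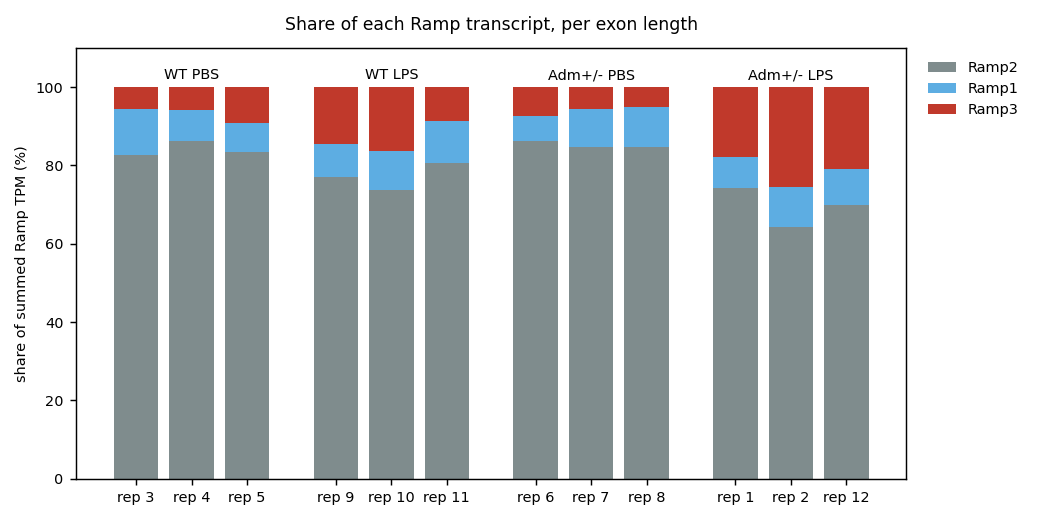
Share of Ramp1, Ramp2 and Ramp3 in the summed Ramp TPM (vertical axis, percent), 1 bar per library in the order of the groups. The Ramp3 share is at most 9.07% in PBS libraries and at least 17.8% in Adm+/- LPS libraries. Shares use the length of all annotated exons joined, which is 3301 bases for Ramp2.

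Across the 12 libraries, which differ in group and depth, Ackr3 and Ramp2 ran opposite to each other (Pearson r = -0.901 on log2 CPM, and -0.842 after subtracting group means). Ramp3 and Calca had r = 0.869 over the libraries and 0.488 after subtracting group means. Adm had an r with each other member between -0.276 and 0.374. The genes closest to Ackr3 were Jak2 (r = 0.986), Slc11a2 (0.982) and Tmem252 (0.981). Those closest to Ramp3 were Ehd1 (0.987), Mapkapk2 (0.984) and Rhbdf2 (0.979), and those closest to Calca were Zbtb7c (0.976), Gramd1b (0.969) and Rasa4 (0.963). Ramp2 ran with Neil1 (0.977), Fggy (0.96) and Sigirr (0.956). Calcrl ran with Arhgap5 (0.982), Actr6 (0.982) and Rsu1 (0.98), and over the 10 libraries without WT PBS replicate 5 and Adm+/- PBS replicate 6 these were 0.891, 0.91 and 0.884. For Ramp1 they were Mybphl (0.878), Tekt3 (0.857) and Mapk10 (0.855), and for Adm they were Zfp385c (0.851), Gsta3 (0.844) and Cabp7 (0.823). Ranked over the 12 libraries by Spearman's rho in place of Pearson's r, 4 of the 21 closest genes were the same.

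Of 5 other tested ligands and receptors of the system, Gpr182 and Cxcl12 were called in both genotypes. Gpr182, an orphan receptor once listed as an adrenomedullin receptor and now known to bind chemokines, rose from 24.1 ± 5.23 to 42.4 ± 10.1 CPM in WT mice (log2 fold change 0.81, adjusted p = 0.018 from edgeR). In Adm+/- mice its mean went from 23.5 ± 3.17 to 51.3 ± 8.47 CPM (SD, n = 3) (1.13, adjusted p = 0.002 from edgeR). Cxcl12, the chemokine ligand of Ackr3, fell from 259 ± 12.4 to 162 ± 37.4 CPM in WT mice (-0.68, adjusted p = 0.0177 from edgeR). It fell from 271 ± 5.33 to 167 ± 37.7 CPM in Adm+/- mice (-0.70, adjusted p = 0.01 from edgeR). So 2 of the 5 tested genes of this list were called in each genotype, 1 in each direction. Over all tested genes, 17.6% were called in WT and 25% in Adm+/- mice. In WT mice the count was 0 without WT LPS replicate 9 or with only the WT libraries in the fit, and 1 without WT LPS replicate 10. Cxcr4, the signalling receptor for Cxcl12, had log2 fold changes of -0.21 and -0.46 and Crcp, a cytoplasmic partner of the Calcrl complex, of -0.06 in WT mice, none of them called. Calcb was not called in either genotype, and the calcitonin receptor gene Calcr and the amylin gene Iapp did not pass the filter on low counts, with at most 17 and 8 counts.

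Of the other class B receptors, 10 of 13 were tested and 4 were called in WT and 5 in Adm+/- mice, beside 17.6% and 25% of all tested genes. The parathyroid hormone receptor Pth1r fell by 0.91 and 0.89 log2 units in WT and Adm+/- mice, and the glucagon-like peptide receptor Glp1r fell by 0.78 and 0.89. Glp2r rose by 1.37 and 1.43. The receptors for vasoactive intestinal peptide were called in Adm+/- mice, with Vipr1 at 1.11 and Vipr2 at 0.69. Crhr2 rose in WT mice by 2.39 and was 2.54 log2 units lower in Adm+/- LPS than in WT LPS (a log2 fold change of -2.54, adjusted p = 0.013 from edgeR), in the comparison where skeletal muscle markers also differed.

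Of 18 tested enzymes and other genes that make, bind or break down such peptides, 4 were called in Adm+/- mice, where 25% of all tested genes were, and none in WT mice with edgeR. The median of the list was -0.12 in Adm+/- and 0.03 in WT mice. In WT mice 6 of the 18 had an unadjusted p below 0.05, 1 was called with DESeq2 and 1 with limma-voom, and 3 were called without both libraries that stood apart, 1 without WT PBS replicate 3, 4 or 5. In Adm+/- mice 3 of these genes were called higher and 1 lower. Among them the proprotein convertase Furin rose by 0.76 and the peptidase Dpp4 fell by 0.72 on the log2 scale.

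In the cyclic AMP pathway, into which the receptor signals, 7 of 30 tested genes were called in WT mice (1 higher, 6 lower), where 17.6% of all tested genes were called and 7.09% lower. There were 12 called in Adm+/- mice (2 higher, 10 lower), where 25% of all tested genes were called and 12.2% lower. The adenylyl cyclases Adcy3 and Adcy8 fell in both genotypes, by 0.72 and 0.52 log2 units in WT mice. The phosphodiesterases Pde3b, Pde4a, Pde7b and Pde8b, which degrade cyclic AMP, also fell in both, with Pde4a at -1.11 and -1.07. In Adm+/- mice Adcy1, Adcy7, Adcy9 and the catalytic subunit gene Prkaca were called lower as well, at -0.67 to -0.79. Pde4c rose by 1.69 in WT and 2.94 in Adm+/- mice. Pde4b rose from 91.7 ± 3.13 to 168 ± 18.8 CPM (SD, n = 3) in Adm+/- mice (log2 fold change 0.88, adjusted p = 0.000204 from edgeR) and was higher in Adm+/- LPS than in WT LPS by 0.53 (adjusted p = 0.03 from edgeR). The WT count was 3 without WT PBS replicate 5, without WT LPS replicate 9 or with only the WT libraries, and the Adm+/- count was 6 to 7 without Adm+/- LPS replicate 2, Adm+/- PBS replicate 6 or Adm+/- LPS replicate 12.

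Of 9 tested genes that desensitize or recycle such receptors, Arrb2 (0.81) and Nsf (0.51) were called higher in WT mice and Grk3 (0.61) in Adm+/- mice. Over all tested genes, 17.6% were called in WT and 25% in Adm+/- mice. The WT count was 1 without WT PBS replicate 5 or WT LPS replicate 9, with all annotated genes and with only the WT libraries. The Adm+/- count was 2 without Adm+/- LPS replicate 2, WT PBS replicate 5 or Adm+/- PBS replicate 6, and with only the Adm+/- libraries. It was 3 without both libraries that stood apart and 3 with no fold threshold. Adm is a known target of hypoxia-inducible factors, and of 22 tested hypoxia-response genes 6 were called higher and 1 lower in WT mice, and 8 higher and 1 lower in Adm+/- mice, beside 10.5% and 12.8% of all tested genes called higher. Slc2a1, Bnip3, Ndrg1, Pfkfb3, Bhlhe40 and Hk2 rose in both genotypes, and Hk2, a hexokinase, did so by 1.59 and 2.44 log2 units. Hif1a (1.26) and Ldha (0.71) rose and Car9 fell by 0.82 in Adm+/- mice, and Vegfa fell by 0.51 in WT mice. Adm itself did not pass in either, at 0.39 and 0.34 log2 units. Its WT value was 0.21 without WT PBS replicate 3 and 0.67 without WT PBS replicate 4, and its Adm+/- value was 0.06 without Adm+/- LPS replicate 2 and 0.51 without Adm+/- PBS replicate 6.

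**Figure D4:**
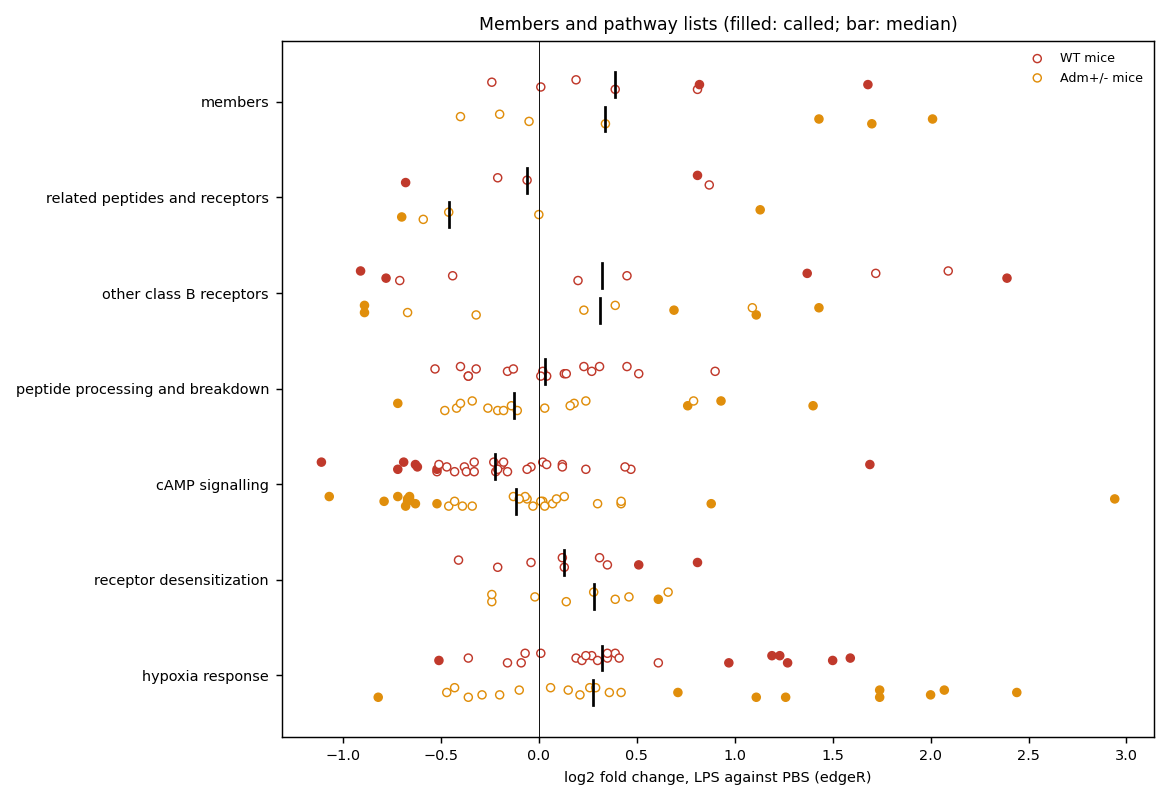
Log2 fold changes after LPS (horizontal axis) of the tested members and of the tested genes of 6 pathway lists, in WT (upper row of each list) and Adm+/- mice (lower row), with filled points for called genes and a bar at the median. The members' medians are 0.39 and 0.34, and those of the 22 hypoxia-response genes 0.33 and 0.27.

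Endothelial markers were read beside Calcrl, Ramp2 and Ackr3, because in whole lung fewer cells of a type and less RNA per cell cannot be told apart. Of 20 endothelial markers 4 were called lower in WT mice and none higher. Over all tested genes, 7.09% were called lower and 10.5% higher. Those lower were Kdr (-0.79), Sox17 (-0.83), Tie1 (-0.77) and Clec14a (-0.52). In Adm+/- mice 5 were called lower and 1 higher, beside 12.2% and 12.8% of all tested genes. Kdr (-1.11), Sox17 (-1.34), Clec14a (-0.82), Tek (-0.70) and Egfl7 (-0.54) were lower and Robo4 (0.68) was higher. The medians were -0.30 in WT and -0.04 in Adm+/- mice. The WT count was 2 without WT LPS replicate 9 and 0 with only the WT libraries in the fit. Cdh5, Vwf and Pecam1 had log2 fold changes of -0.15, -0.02 and 0.19 in WT mice and 0.09, 0.29 and 0.39 in Adm+/- mice, none of them called. The summed level of the 20 genes was 4423 to 4551 CPM in WT LPS and 5044 to 6294 CPM in WT PBS, and 4798 to 5282 against 5101 to 5868 CPM in Adm+/- mice. The value of Ramp2 in Adm+/- mice, -0.40, lay among those of the 20 markers, and the part of endothelial content in it was not tested.

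Markers of endothelial subtypes were counted in the same way. The counts stand beside 10.5% of all tested genes called higher and 7.09% lower in WT mice. In Adm+/- mice these shares were 12.8% and 12.2%. Of 8 lymphatic markers 4 were called higher in WT and 3 in Adm+/- mice, led in level by Lyve1, which rose by 1.22 and 1.64 log2 units. Flt4 (-0.37 and 0.03) and the defining gene Prox1 (0.47 and 0.31) were not called in either genotype. In WT mice the count was 2 without WT PBS replicate 5 or WT LPS replicate 9 and with only the WT libraries. Adrenomedullin signalling through Calcrl and Ramp2 is known for its role in lymphatic growth, and a link to these counts was not tested. Of 10 arterial and venous markers 3 were called higher and 2 lower in WT mice, and 4 higher and 2 lower in Adm+/- mice. Their most abundant genes were Efnb2 and Nr2f2, which were not called in either genotype, and Vcam1, which rose by 1.04 in Adm+/- mice. Of 8 markers of capillary aerocytes none was called in WT mice with edgeR or limma-voom, 2 had an unadjusted p below 0.05 and 2 were called with DESeq2, and 1 was called lower in Adm+/- mice. Both counts were 2 without WT PBS replicate 3, the WT count was 1 without Adm+/- PBS replicate 6 or WT LPS replicate 11, and the Adm+/- count was 2 without WT PBS replicate 5. Of 7 general capillary markers 1 was called higher in WT mice (2 without WT PBS replicate 4) and 2 in Adm+/- mice (1 without Adm+/- PBS replicate 6 or 7). Of 14 smooth muscle and pericyte markers, 2 were called lower in WT mice and 1 in Adm+/- mice, counts that were 0 to 4 and 0 to 2 when 1 library was left out.

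The remaining cell type lists covered leukocytes, thymocytes, fibroblasts, skeletal muscle and squamous epithelium, and stand beside the same shares of all tested genes. Of 11 tested neutrophil markers 10 were called higher in WT and 11 in Adm+/- mice, and of 12 monocyte and macrophage markers 10 and 9 were called higher, with 1 lower in Adm+/- mice, where 6 in all were called without Adm+/- LPS replicate 1. Skeletal muscle markers were called higher for 11 of 11 in WT and 1 of 11 in Adm+/- mice, where the count was 2 without WT PBS replicate 5, WT LPS replicate 10 or WT LPS replicate 11. Of 10 squamous epithelium markers 9 were called higher in WT mice with edgeR and 1 with limma-voom. None was called in Adm+/- mice with edgeR or limma-voom, 2 had an unadjusted p below 0.05 and DESeq2 called 5, and with edgeR the count was 5 without WT LPS replicate 10 and 1 without Adm+/- LPS replicate 12. Of 12 lung fibroblast markers 3 were called higher and 3 lower in WT mice, and 4 lower in Adm+/- mice. The WT count of 6 was 2 without WT LPS replicate 9, and the Adm+/- count of 4 was 7 without WT PBS replicate 5. Of 7 thymocyte markers none was called in WT mice with edgeR, DESeq2 or limma-voom, 3 had an unadjusted p below 0.05, and 1 was called without WT PBS replicate 5. There were 2 called lower in Adm+/- mice, a count that was 1 with limma-voom and with RLE size factors, 2 without WT PBS replicate 4 or 5 and 0 or 1 without any other single library. The part of these cells in the values of the members was not tested.

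**Figure D5:**
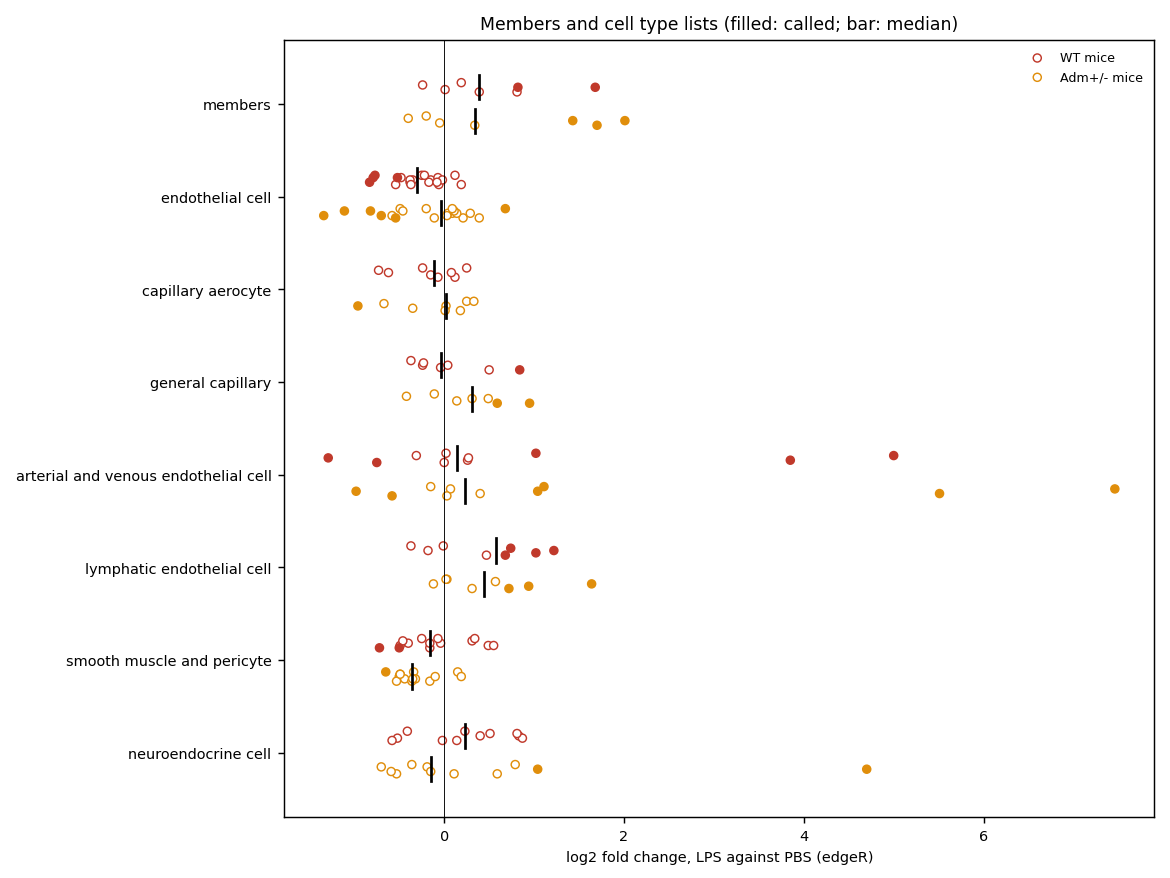
Log2 fold changes after LPS (horizontal axis) of the tested members and of 7 cell type marker lists, drawn as in the plot of pathway lists. The lymphatic markers have medians of 0.57 and 0.44 and the endothelial markers of -0.30 and -0.04, beside 0.39 and 0.34 for the members.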

How the data were processed

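RNA of 12 whole lungs was depleted of ribosomal RNA and sequenced by the authors as strand-directional libraries. Per the labels and methods, reads were trimmed with Trim Galore, aligned to mm10 with HISAT2 and counted on Gencode genes with featureCounts, and the deposited values are whole-number raw counts per gene, without normalization. The Gencode release and the strand option are not given in the sources used here, and 99.7% of the genes were found in release M21, which gave positions, biotypes and exon lengths.

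Counts were analysed with edgeR 4.0.16 in R 4.3.3: TMM factors, filterByExpr on protein-coding genes (15885 of 21950 passed), 1 coefficient per group, glmQLFit and glmQLFTest, with Benjamini-Hochberg adjustment over all tested genes in each of 7 contrasts (8 residual degrees of freedom). The code was tested on simulated data. Correlations used log2 CPM with a prior count of 2. Totals ranged from 22382535 to 38062873 counts per library. Reads carry no molecular identifiers, so the floor of 3 counts covers counting error only. No pair of libraries in a group was identical.

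Alternatives were RLE size factors, DESeq2 1.42.0, limma-voom (limma 3.58.1, the package used in the study), other filters, all annotated genes, only the libraries of a comparison, no fold threshold, and each library left out. The 8 genes, 6 pathway lists and 15 cell type lists were chosen with earlier results of these data known. Genes named are the members, genes of a pathway list that are called or are binding partners, and the 3 most abundant genes of a cell type list. Also named are defining genes near 0, Prox1, the called genes of the endothelial list, and the 3 genes of highest r with a member. Some genes of these lists are not reported here by name.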

Additional observations from a re-analysis of the deposited data

How the results depend on the processing

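No paired analysis was possible because the replicate numbers are library numbers that no groups share. The count of members called stayed within 1.5 times its value in all comparisons and alternatives with these exceptions. In WT mice it was 1 in place of 2 with only the libraries of the comparison, where Calca had an adjusted p of 0.0803. Between genotypes in LPS it was 1, Ackr3, in place of 0 with DESeq2 and without both libraries that stood apart (adjusted p = 0.0343 from edgeR), and 0 to 1 when single libraries were left out. The cause was not tested. DESeq2 and limma-voom otherwise called as many members as edgeR, except that DESeq2 called 3 in WT mice. Changes of sign were seen only among values that were not called. Without both libraries that stood apart, the difference in response was 0.21 for Adm and -0.40 for Calca, the genotype value in PBS 0.62 for Calca and 0.01 for Ramp1, the WT response -0.15 for Calcrl and -0.04 for Ramp1, and the averaged genotype value -0.03 for Calcrl. With limma-voom the genotype value of Calca in PBS was 0.12, the averaged response of Calcrl 0.08 and the WT response of Ramp1 -0.01, which was also -0.01 with all annotated genes. With RLE size factors and with DESeq2 the averaged response of Calcrl was 0.00.

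With 1 library left out, the difference in response ranged from -0.34 to 0.13 for Adm, -0.33 to 0.76 for Calca and -0.22 to 0.05 for Ramp1. The genotype value in PBS ranged from -0.55 to 0.55 for Calca, -0.13 to 0.53 for Calcrl, -0.17 to 0.08 for Ramp1, -0.09 to 0.06 for Ramp2, -0.49 to 0.11 for Ramp3 and -0.06 to 0.15 for Ackr3. The averaged genotype value ranged from -0.17 to 0.39 for Calca and -0.15 to 0.18 for Calcrl. The LPS response ranged from -0.15 to 0.51 for Calcrl and -0.10 to 0.17 for Ramp1 in WT mice, and from -0.19 to 0.05 for Ramp1 in Adm+/- mice. Averaged over genotypes, it ranged from -0.17 to 0.15 for Calcrl and -0.09 to 0.06 for Ramp1. With the same fits Ackr3 and Calca were called in both genotypes and Ramp3 in Adm+/- mice in 12 of 12. With 3 mice per group, changes in Adm and Ramp3 rest on 74 to 350 counts per library and those of Calca on 5 to 55.

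Over all genes, the WT count of 2791 was 1152 with only the libraries of the comparison and 1443 without WT LPS replicate 9. The count for the difference in response was 23 with edgeR, 168 with DESeq2 and 1 with limma-voom, and 5 to 65 with 1 library left out. Between genotypes in LPS it was 325, against 803 with DESeq2 and 548 without both libraries that stood apart, and 81 to 573 with 1 left out. Averaged over treatments it was 46, against 275 with DESeq2, 26 with limma-voom and 17 without both, and 21 to 133 with 1 left out. For LPS averaged over genotypes it was 4455, and 7150 with no fold threshold.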
